A study of Mus musculus with 2 samples.

Results

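Genes of cholesterol and fatty acid synthesis, which are targets or regulators of the sterol regulatory element-binding proteins (SREBPs), were examined in mouse odontogenic epithelial cells treated with CHIR99021. The genes were taken from a list of 32 names, and a probe belonged to a gene where the gene name in the array file equalled the listed name. Of the 32 names, 31 had a probe among the 37074 gene names on the array, and there was no probe named Acat2. All 31 were well above background on at least 1 array and were tested, as were 18838 of all gene names. The listed genes held 67 probes, of which 53 were well above background on both arrays, 2 on the vehicle array only, 2 on the CHIR99021 array only and 10 on neither.

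The study looked for genes through which the β-catenin pathway might hold back proliferation of these cells, and took candidates from genes lower with treatment. It stimulated the cell line mDE6 for 6 h with CHIR99021, an inhibitor of the kinase GSK-3 that stabilises β-catenin. Total RNA was labelled with the dye Cy3 and hybridised to Agilent 1-colour arrays. There was 1 array of mDE6 cells given the DMSO vehicle and 1 array of mDE6 cells given CHIR99021, both at 6 h, so no difference between them has a replicate check and no statistical test was possible. Both groups are the same cell line with no genetic change named in the labels. The labels give the dose as 5 mM and name DMSO in the control, whereas the methods of the study give 5 μM and call the control untreated. Both arrays lay on 1 slide, so that where an array lay and what its cells received cannot be told apart.

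SREBPs are transcription factors that are held in the endoplasmic reticulum with their escort Scap while Insig proteins and sterols retain the complex. When sterols run low the complex moves to the Golgi, where proteases release the active factor, which enters the nucleus and switches on genes of cholesterol synthesis, cholesterol uptake and fatty acid synthesis. Nuclear SREBP is short-lived, and phosphorylation by GSK-3 is known to mark it for ubiquitination by the ligase that contains Fbxw7.

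Values are processed signals, the background-subtracted brightness of a probe. A ratio is the CHIR99021 signal over the vehicle signal after division by the array's 75th percentile (486.7 for vehicle, 469.17 for CHIR99021). Where a gene had several probes, the brightest was taken for the gene and the others are given beside it. Following the criteria of the study for lower genes, a gene was called lower when its ratio was no more than 0.66 and its Z-score no more than -2, and higher, as the mirror of this, when its ratio reached 1.5 and its Z-score 2. The study prints the Z-score limit for lower genes without a minus sign, which was added here. The study does not define its Z-score, which here sets a log2 ratio against the 500 probes nearest in mean signal. The scanner software's own error on a log2 ratio was 0.20 to 0.21 for the listed genes measured on both arrays, of which most is a fixed share of 10% of each signal. Probes printed 10 times on the array had a median SD of 0.03 log2 between spots (n = 220 probes), which covers spot-to-spot error only. No spot of a listed gene was saturated.

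The cells carried some of the markers of their labelled type. The epithelial markers Trp63, with signals of 2306 and 2896, and Krt14, with only 48.5 and 54.6, were well above background on both arrays. Krt5 was so on the CHIR99021 array only and Krt18 on the vehicle array only, and Krt8, Krt19, Cdh1 and Epcam were on neither. All 7 mesenchymal markers, Vim, Col1a1 and Col1a2 among them, were well above background on both arrays, Vim with signals of 52302 and 45883. Markers differed between the arrays too, as Krt5 was at least 9.11-fold higher with CHIR99021 and met both criteria. Its 1 probe had signals of 5.51 and 165 and lay in row 379 of the array's 384. The part of array position in that difference was not tested. Twist1, a mesenchymal marker, had signals of 647 and 967, a ratio of 1.55, but missed the Z-score criterion at 1.67. Prrx1 was near 1, at 1.01. Of the 7 mesenchymal markers, 5 had a ratio under 1, the lowest being Pdgfra at 0.785. The median log2 ratio of these markers was -0.11. The part of cell types in the ratios of the listed genes was not tested. The leukocyte markers Ptprc and Cd68 and the adipocyte marker Fabp4 were well above background on both arrays, whereas Adipoq, Plin1, Alb and Apoa1, which mark adipocytes and hepatocytes, were on neither. For the Wnt feedback genes, the Lef1 signal was 239 with vehicle and 690 with CHIR99021, a ratio of 2.997. Axin2 and Nkd1 were well above background with CHIR99021 only, at least 2.09-fold and 32.4-fold higher. These probes of Lef1, Axin2 and Nkd1 lay in rows 294, 312 and 368, and the part of array position was not tested.

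The probes behind the highest ratios are shown by their beginnings, so that the measured transcripts can be recognised. The first 30 of the 60 bases are given 5′ to 3′ in lower case, with nothing marked, for the 5 listed genes of highest ratio. In mm9 the whole probes lie at chr11:120668460-120668519 for Fasn, chr5:4082122-4082181 for Cyp51 and chr1:171882591-171882650 for Hsd17b7 on the minus strand, and at chr19:44381024-44381083 for Scd2 and chr10:76016592-76016651 for Lss on the plus strand. Which exon or untranslated region a probe reads is not given in the files.
Fasn: gcttgggttttgacttttctgcagctgtca
Cyp51: ttgaggccaacctaggctacggagcaagac
Scd2: acatttggggatcctctgcagaggagtatt
Hsd17b7: gtattcaagagaaaggtgtgaatgtgtttg
Lss: ggcactccacacatggtacatagacataca

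Across the list, signals leaned towards CHIR99021. Because RNA was taken from whole cultures, a lower signal from fewer cells of a kind cannot be told apart from less RNA per cell. Of the 31 tested genes, 29 had a ratio above 1, against 53.4% of all tested genes, although Mvk and Ebp crossed to under 1 with some other scalings. The median log2 ratio was 0.40, a ratio of 1.32, against 0.02, a ratio of 1.02, over all tested genes. Called higher by ratio and Z-score were 9 genes, Fasn, Cyp51, Scd2, Hsd17b7, Lss, Idi1, Acaca, Sqle and Msmo1, against a background of 2.63% of all tested genes. By the ratio alone Insig1 joined them, so that 10 genes were at or above 1.5, against 8.05% of all tested genes and 5.06% of the 16887 genes measured on both arrays. With a Z-score taken over all probes in place of the 500 nearest, 0 genes were called higher and Lpin1 was called lower. None was called lower by the criteria used here, where the background was 3.22%, and Lpin1 alone was at or under 0.66 by the ratio, where it was 9.67%.

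At the brightest probe, the lowest ratio among the 10 genes was 1.65, for Msmo1, and the highest among the others was 1.38, for Pmvk. With the mean over the probes of a gene there was no such gap, as Acaca was at 1.36 and Stard4 and Acly at 1.67 and 1.477. All 10 were among the 500 highest ratios of the 16887 genes measured on both arrays, and Fasn was at rank 144. The log2 ratio was above 2 times the scanner's error for 15 genes. The share of all tested genes past that limit was not computed, so this count has no background beside it. Of the 53 probes measured on both arrays, 49 had a log2 ratio above 0, 19 had a ratio of at least 1.5 and 0 had a ratio of at most 0.66, against 55.4%, 5.49% and 5.61% of the 25026 probes of any gene measured on both arrays.

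**Figure D1:**
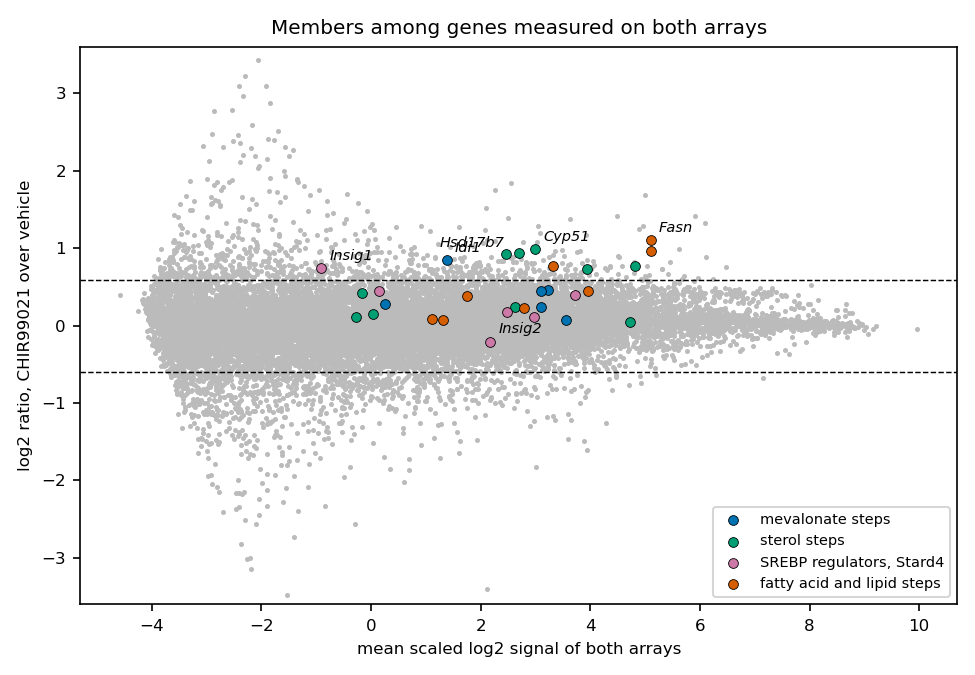
Each grey point is 1 of the 16887 genes measured on both arrays, with the mean scaled log2 signal on the horizontal axis and the log2 ratio of CHIR99021 over vehicle on the vertical axis. Coloured points are the 30 listed genes measured on both arrays, and dashed lines mark ratios of 0.66 and 1.5. Fasn, at a log2 ratio of 1.103, lies highest among the listed genes, and Insig2, at -0.21, is the lowest of the 30.

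The mevalonate steps, which build isoprenoid units from acetyl-CoA, gave 6 measured genes, all with ratios above 1 except Mvk under some alternatives, of which 1 was called higher. Their median log2 ratio was 0.36. Idi1, the isomerase that makes the allylic isoprenoid unit, had a signal of 945 with vehicle and 1638 with CHIR99021, a ratio of 1.80 (log2 ratio 0.85, Z-score 2.56). It was the 1 mevalonate gene past the criteria.

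Around Idi1 the differences were smaller. Pmvk, a kinase of mevalonate phosphate, had signals of 3882 and 5149, a ratio of 1.38, and its other probe gave 1883 and 2536, a ratio of 1.40. Fdps, which joins isoprenoid units into farnesyl diphosphate, had signals of 3587 and 4733, a ratio of 1.37. Both lay under the ratio criterion. Mvd, the decarboxylase before Idi1, had signals of 529 and 616, a ratio of 1.21, and Hmgcs1, the synthase that makes HMG-CoA, had 3835 and 4348, a ratio of 1.18. A second Hmgcs1 probe stayed near background on both arrays. Mvk, which phosphorylates mevalonate, had signals of 5598 and 5655, a ratio of 1.05, and its other probe had 516 and 495, a ratio of 0.996, so that its direction differed between probes. With quantile normalization, or in the table normalized by the authors, the ratio of the brighter Mvk probe was 0.975.

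The sterol steps, which turn farnesyl diphosphate into cholesterol by way of squalene and lanosterol, held 5 of the 9 called genes. All 10 measured genes had a ratio above 1, except Ebp under some scalings, and the median log2 ratio was 0.57, the highest of the gene groups on the list. The called genes, Sqle, Lss, Cyp51, Msmo1 and Hsd17b7, act between squalene and the demethylated products of lanosterol, as do Tm7sf2 and Nsdhl, which were not called.

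Cyp51, the lanosterol demethylase, had a signal of 2761 with vehicle and 5271 with CHIR99021, a ratio of 1.98 (log2 ratio 0.99, Z-score 2.92). Its other probe had 166 and 357, a ratio of 2.24. The log2 ratios of the Cyp51 probes lay 0.18 apart. Hsd17b7, a reductase acting on sterol ketones, had signals of 2281 and 4208, a ratio of 1.91 (Z-score 2.87). A second Hsd17b7 probe had 442 and 834, a ratio of 1.96, and a further one was well above background with CHIR99021 only, at least 1.51-fold higher. That limit could only lie on the higher side, since the probe was kept for its CHIR99021 signal.

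Lss, the cyclase that forms lanosterol, had signals of 1964 and 3580, a ratio of 1.89 (Z-score 2.82). Its other probes had 588 and 962, a ratio of 1.70, and 512 and 986, a ratio of 1.996. The last of these had 7 neighbours within 3 rows and columns whose spots differed by more than 4-fold and stood well above background on only 1 array, and the part of such spots in its ratio was not tested. The brightest Lss probe had 1 such neighbour. Sqle, the squalene epoxidase that is a rate-limiting step of sterol synthesis, had signals of 10482 and 17202, a ratio of 1.70 (Z-score 2.53). That probe had 2 such neighbours, whose part was not tested, and a further Sqle probe was on neither array above background. Msmo1, the oxidase that removes methyl groups after Cyp51, had signals of 5825 and 9280, a ratio of 1.65 (Z-score 2.10). Another Msmo1 probe had 893 and 1685, a ratio of 1.96, and the remaining one was not well above background. All 5 called sterol genes were thus higher at every probe measured on both arrays.

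The other sterol genes differed less. Dhcr7, a reductase of the last steps of the pathway, had signals of 377 and 485, a ratio of 1.34. Fdft1, the squalene synthase that opens the branch to sterols, had signals of 2784 and 3158, a ratio of 1.18, and its other probe had 703 and 869, a ratio of 1.28. Neither met the criteria. Nsdhl, a dehydrogenase in the demethylation of sterols, had signals of 477 and 507, a ratio of 1.104, with a further probe on neither array above background. Tm7sf2, a sterol reductase, had 386 and 401, a ratio of 1.08, and its other probe a ratio of 1.13. Ebp, the sterol isomerase, had signals of 12600 and 12572, a ratio of 1.035 and 1.09 at its other probe. The Ebp ratio fell under 1 without scaling, at 0.998, and with 4 other scalings, the lowest being 0.965.

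**Figure D2:**
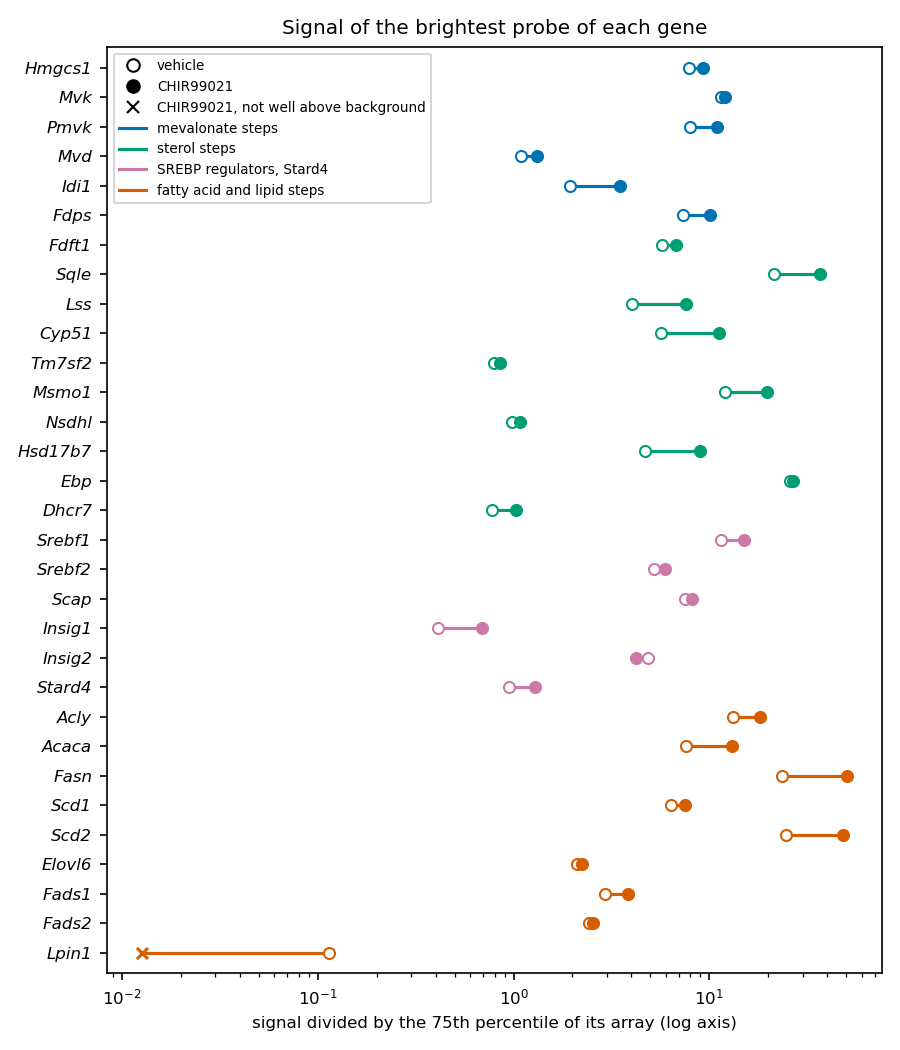
The horizontal axis, which is logarithmic, gives the signal of the brightest probe of each listed gene divided by the 75th percentile of its array, with 1 array per condition. Open points are vehicle and filled points CHIR99021, and the distance between them is to be read within a gene, not between genes. The filled point lies to the right for 29 of the 31 genes, and to the left for Insig2 and Lpin1. A cross marks the Lpin1 signal with CHIR99021, which was not well above background.

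The regulators of the pathway gave 1 ratio of at least 1.5 and none that met both criteria. Of 6 genes, 5 had a ratio above 1, and the median log2 ratio was 0.29. Insig1, which retains the Scap complex and is itself a target of SREBP, had signals of 200 and 322, a ratio of 1.67 (log2 ratio 0.74, Z-score 1.69). Its probe lay in row 372 of the array's 384 and had 5 of the neighbouring spots described for Lss, whose part in its ratio was not tested. Insig2, the relative of Insig1, was the only listed gene measured on both arrays with a ratio under 1. Its signals were 2368 and 1976, a ratio of 0.865, and its other probes gave 0.898 and 0.873. All 3 Insig2 probes lay on the lower side and none met the criteria.

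For the SREBP genes themselves the differences were modest. Srebf1, which encodes the form that favours fatty acid synthesis, had signals of 5570 and 7063, a ratio of 1.32. Srebf2, which encodes the form that favours cholesterol synthesis, had 2546 and 2778, a ratio of 1.13, and its other probe had 99.2 and 121, a ratio of 1.27. Neither reached 1.5. Scap, their escort, had signals of 3666 and 3812, a ratio of 1.08. Stard4, a carrier that moves sterols between membranes, had 459 and 602, a ratio of 1.36, whereas its dimmer probe had 44.2 and 87.9, a ratio of 2.06. The Stard4 probes differed by 0.60 log2, more than the scanner's error.

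The fatty acid and lipid genes held the highest ratio of the list. Of 9 measured genes, 8 had a ratio above 1, 3 were called higher and the median log2 ratio was 0.39, or 0.23 with the later rows of the array left out, where Fasn and Scd2 had no measured probe. Fasn, the synthase that builds palmitate, had a signal of 11422 with vehicle and 23647 with CHIR99021, a ratio of 2.15 (log2 ratio 1.103, Z-score 3.78). Scd2, a desaturase that makes monounsaturated fatty acids, had signals of 12065 and 22667, a ratio of 1.95 (log2 ratio 0.96, Z-score 3.24). Each rested on 1 probe, and the Scd2 probe had 2 of the neighbouring spots described for Lss, whose part was not tested. Scd1, the other stearoyl-CoA desaturase on the list, had signals of 3114 and 3511, a ratio of 1.17, so that the paralogs differed in their ratios by more than the scanner's error. A further probe named Scd1, mapped to the opposite strand, stayed near background on both arrays.

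Acaca, the carboxylase that commits acetyl-CoA to fatty acids, had signals of 3715 and 6114 at its brightest probe, a ratio of 1.71 (Z-score 2.34). A second probe had 256 and 391, a ratio of 1.58, but the dimmer ones had 56.1 and 61.3, a ratio of 1.13, and 30.4 and 32.8, a ratio of 1.12, and 3 more were on neither array above background. The range over its 4 measured probes was 0.61 log2, the widest on the list, and with the mean over probes in place of the brightest probe its ratio was 1.36. Acly, which supplies cytosolic acetyl-CoA, had signals of 6457 and 8475, a ratio of 1.36, and its other probe had 30.02 and 46.4, a ratio of 1.60. Acly was under the ratio criterion at the probe that represents it.

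Elovl6, Fads1 and Fads2, which lengthen or desaturate fatty acids, showed smaller ratios than Fasn, Scd2 and Acaca at their brightest probes. Elovl6, which extends palmitate, had signals of 1027 and 1050, a ratio of 1.06. Fads1, a desaturase of polyunsaturated fatty acids, had 1433 and 1805, a ratio of 1.31. Its other probes had 195 and 233, a ratio of 1.24, and 27.4 and 43.5, a ratio of 1.65. The scanner's error at the dimmest of these was 0.40 log2. Fads2, the desaturase that acts before Fads1, had 1184 and 1196, a ratio of 1.05, but 1.30, 1.19 and 1.47 at its other measured probes. A further Fads2 probe, with 20.1 and 53.0, was well above background with CHIR99021 only. Its limit of 2.73-fold is its computed ratio, with a scanner error of 0.51 log2. That limit could only lie on the higher side, since the probe was kept for its CHIR99021 signal. The probes of Fads1 and Fads2 spanned 0.41 and 0.49 log2. The brightest probe of Fads2 gave its lowest ratio.

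Lpin1, a phosphatidate phosphatase of triglyceride synthesis, was the 1 listed gene with a limit in place of a ratio. Its signal was 55.3 with vehicle, and with CHIR99021 it was 5.94 and not well above background, so that Lpin1 was at least 2.19-fold lower at this probe. With normexp background correction, which adds an offset to every signal, the computed Lpin1 ratio was 0.584, a smaller difference than that limit. A second probe had 30.3 and 5.98, at least 1.20-fold lower, and its other probes stayed near background on both arrays. The Z-score of the first was -1.19, and its spot lay in row 326.

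**Figure D3:**
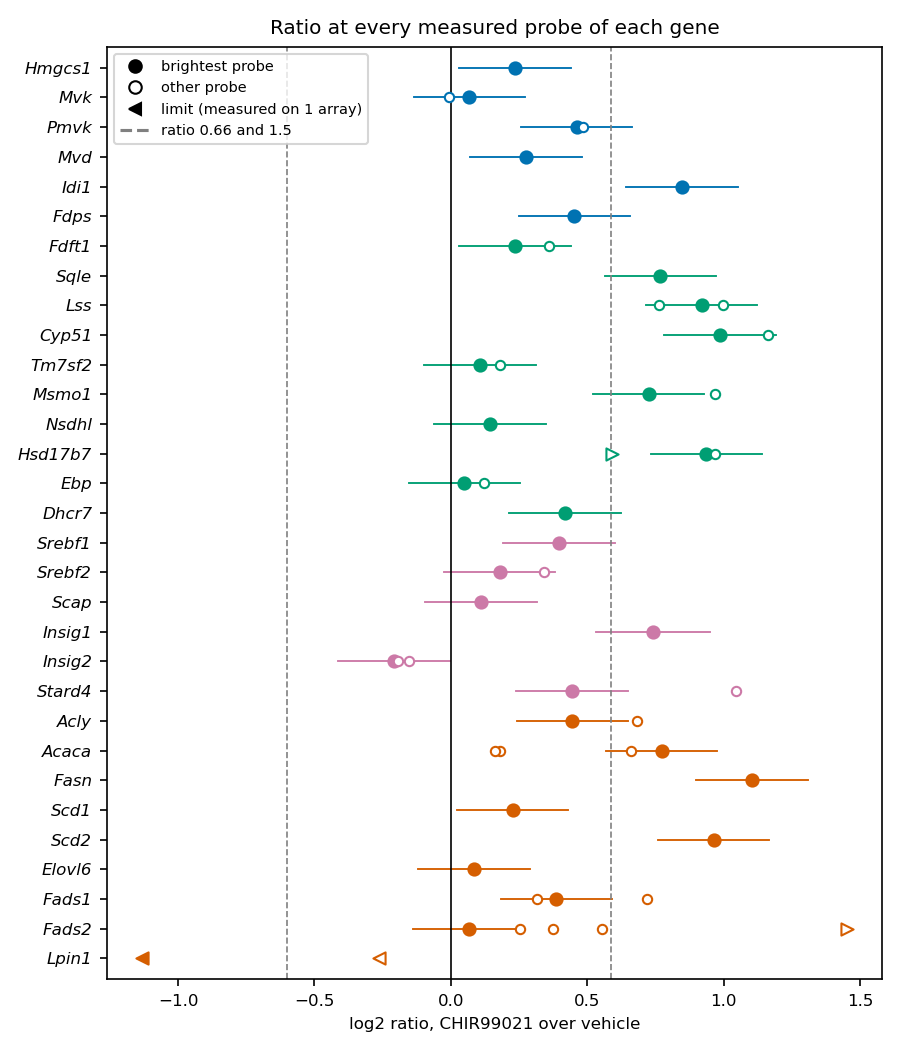
The horizontal axis gives the log2 ratio of CHIR99021 over vehicle at each probe that was well above background, with filled points for the brightest probe of a gene, open points for its other probes and triangles for limits where only 1 array measured the probe. Bars are 1 scanner error to each side of the brightest probe and hold no replicate error. Except for Mvk, the measured probes of each gene lie on the same side of 0, and those of Acaca, Stard4, Fads2 and Fads1 are the most spread.

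Different probes of a gene are the nearest thing to a repeat in these data, although they share the RNA and the array. Of the listed genes, 16 had at least 2 probes measured on both arrays. In 15 of them all probes had log2 ratios of the same sign, the exception being Mvk, and in 12 the probes spanned under 0.3 log2. The median span was 0.17. Among the called genes with several probes, Hsd17b7 spanned 0.03, Cyp51 0.18, Lss 0.23, Msmo1 0.24 and Acaca 0.61, the last with log2 ratios from 0.16 to 0.77.

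Large differences on these arrays were unevenly placed. Of 1182 probes that differed by more than 4-fold and were well above background on 1 array only, 93.1% lay past the middle row. The listed genes measured on both arrays were 15 in the earlier and 15 in the later rows. Of these, 4 in the earlier rows (Hsd17b7, Idi1, Acaca and Msmo1) and 6 in the later rows had a ratio of at least 1.5, against 4.09% of 8559 and 6.05% of 8328 of all genes. Their median log2 ratios were 0.27 and 0.45. With the later rows left out, so that other probes stood in for some genes, 5 of 20 tested listed genes were called higher, against 1.98% of all 10886 genes tested there, and the median log2 ratio was 0.32. Fasn, Scd2, Sqle and Insig1 then had no measured probe.

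**Figure D4:**
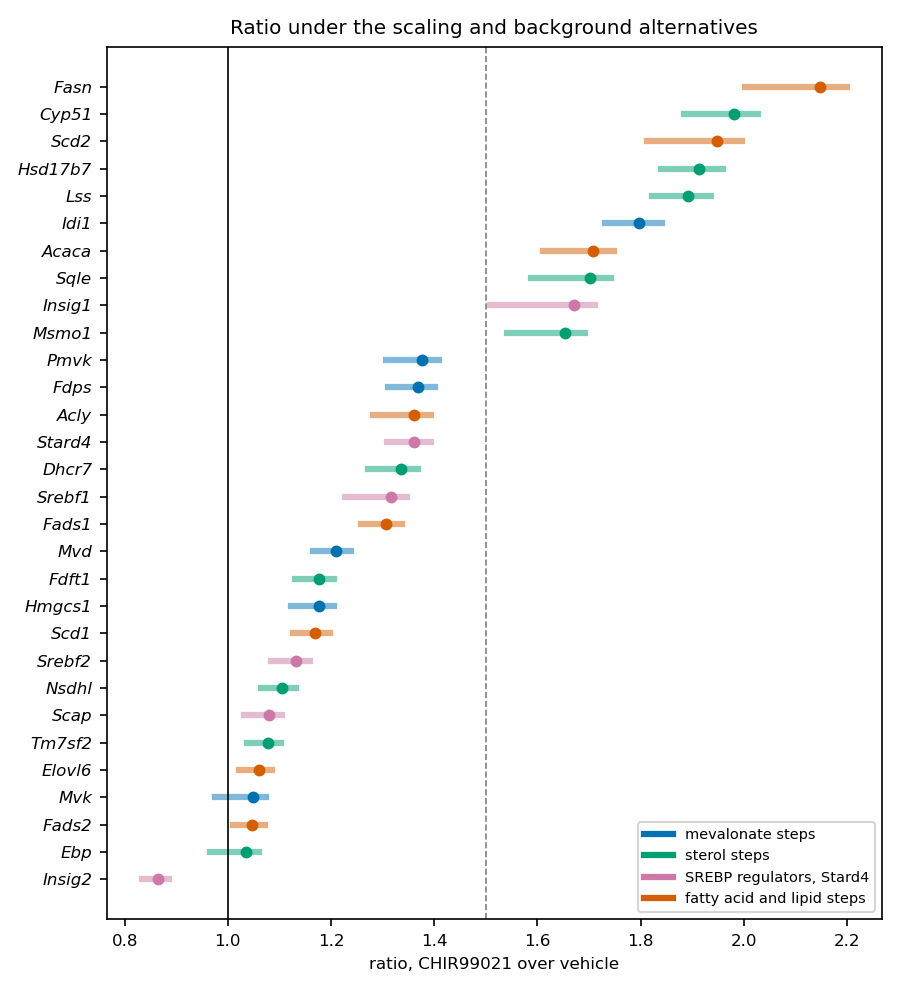
Points are the ratio of CHIR99021 over vehicle at the brightest probe of each of the 30 listed genes measured on both arrays, and bars span the lowest to the highest value over 7 other ways of scaling the arrays or correcting background. All 10 genes at or above 1.5 (dashed line) stayed there throughout, the lowest value being 1.51 for Insig1. The bars of Mvk and Ebp cross 1.

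Genes outside the list but near it in function were described in the same way. Of 9 tested further genes of cholesterol synthesis, uptake and transport, 8 had a ratio above 1, 2 had a ratio of at least 1.5 and 1 was called higher by both criteria, against the 53.4%, 8.05% and 2.63% of all tested genes given above. Their median log2 ratio was 0.45, with a range of -0.18 to 0.82, and the lowest was Ggps1, which makes geranylgeranyl diphosphate, with signals of 512 and 437 and a ratio of 0.885. For the listed genes of cholesterol synthesis the count was 16 of 16 above 1, with a median of 0.43, but Mvk and Ebp were under 1 with quantile normalization and in the authors' table. Of 21 tested further genes of fatty acid and lipid synthesis, 15 had a ratio above 1, 1 had a ratio of at least 1.5 and the same gene was called higher by both criteria, with a median of 0.22. That gene was Acsl3, which activates fatty acids as CoA esters, with signals of 441 and 767 and a ratio of 1.81. Elovl7, an elongase of long-chain fatty acids, was the lowest, with 2232 and 1679 and a ratio of 0.780.

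Of 12 tested genes that process SREBP or control its turnover, 4 had a ratio above 1, against 53.4% of all tested genes, and the median log2 ratio was -0.11. No gene passed 1.5 or 0.66, which 8.05% and 9.67% of all tested genes did. The highest was Fbxw7, the substrate receptor of the ligase that removes nuclear SREBP, with signals of 973 and 1251 and a ratio of 1.33. The lowest was Mbtps1, the protease that makes the first cut in SREBP, with 10483 and 7714 and a ratio of 0.763.

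Genes of the liver X receptors (LXRs), which respond to excess sterol, were few. Of 5 tested genes, 1 had a ratio above 1, against 53.4% of all tested genes, and 2 had a computed ratio of at most 0.66, against 9.67%. For 1 of these, Nr1h3, the limit itself did not reach 0.66, so that only Abca1 was measured past it. The median log2 ratio was -0.50. Abca1, the cholesterol exporter, had signals of 421 and 243, a ratio of 0.599 (Z-score -1.90). Nr1h3, which encodes an LXR, had 37.1 and was not well above background with CHIR99021, at least 1.47-fold lower. Neither was called by both criteria. Lpcat3, which remodels phospholipids, had the highest ratio of these genes, with signals of 5378 and 6614 and a ratio of 1.28.

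**Figure D5:**
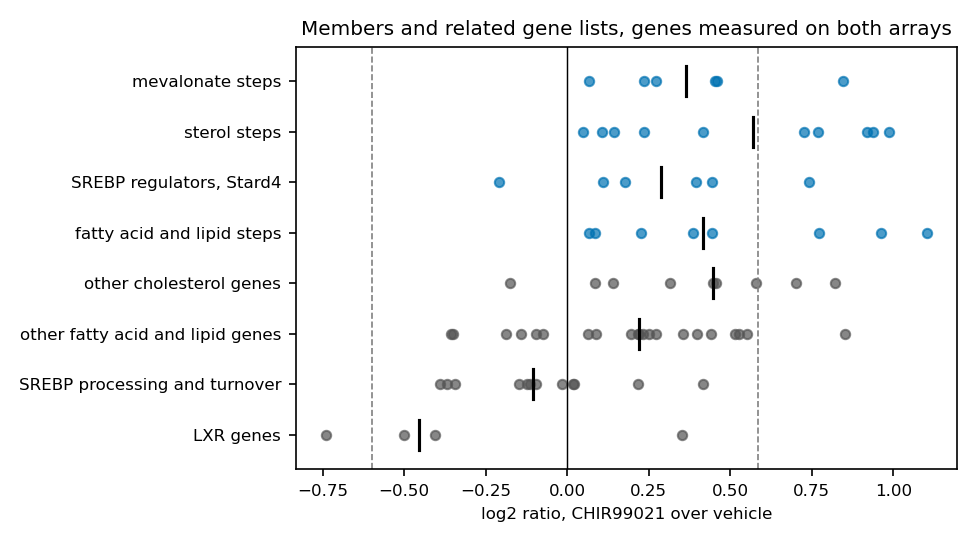
Each point is a gene measured on both arrays, placed by its log2 ratio of CHIR99021 over vehicle, and the vertical bar of each row is the median of the points drawn. Listed genes are in blue by role and the further lists in grey, and dashed lines mark ratios of 0.66 and 1.5. All points of the mevalonate and sterol rows lie above 0, those of Mvk and Ebp only with some scalings, whereas 3 of 4 points of the LXR row lie below it.

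Promoters were searched for letters known from SREBP targets, since SREBPs bind sterol regulatory elements and act with NF-Y and Sp1. RefSeq promoters of GRCm38.p6, from 250 bases before to 50 after a start, were held for 25 of the 32 listed genes, but not for Fdps, Fdft1, Sqle, Stard4, Scd1, Scd2 and Fads1. Both strands were searched, no motif contains another, and a gene counted where any of its promoters held the motif. CCAAT, the NF-Y motif, was in 76% of the 25 genes, against 41.1% of all 27025 genes and 42.7% of tested genes. GGGCGG, the Sp1 motif, was in 80%, against 38.2% of all and 64.0% of tested genes. The CACGTG box, which SREBPs can also bind, was in 16%, against 8.09% of all and 11.3% of tested genes, and TCAAAG, the core of the site bound by TCF and LEF factors, in 12%, against 18.2% of all and 14.7% of tested genes.

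The sterol regulatory element searched as TCACNCCAC was found in 1 listed gene, Hmgcs1, and in 1.44% of all genes. It is shown in capitals with its surroundings from GRCm38.p6, chr13:119690154-119690282 on the plus strand, because the Hmgcs1 promoter is a classic place of SREBP binding. The match begins at position -137 from the start site.
Hmgcs1: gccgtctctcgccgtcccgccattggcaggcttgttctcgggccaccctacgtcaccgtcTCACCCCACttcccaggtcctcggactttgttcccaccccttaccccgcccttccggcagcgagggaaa
Of the listed genes with a promoter here, CCAAT was in 7 of 8 with a ratio of at least 1.5 and in 12 of 16 below it. In the same order, the sterol regulatory element was in 0 of 8 and 1 of 16, and GGGCGG in 6 of 8 and 13 of 16. CACGTG was in 2 of 8 and 2 of 16, and TCAAAG in 0 of 8 and 3 of 16. The 150 bases before the start site are printed for the 4 genes of highest ratio that have a promoter here. Among genes with a promoter here, these carry the largest differences on the higher side. In the printed stretches, CCAAT on either strand is in capitals (ATTGG where it lies on the other strand). They lie in GRCm38.p6 at chr11:120824548-120824697, chr5:4104698-4104847 and chr1:169969206-169969355 on the minus strand and at chr10:76531455-76531604 on the plus strand.
Fasn: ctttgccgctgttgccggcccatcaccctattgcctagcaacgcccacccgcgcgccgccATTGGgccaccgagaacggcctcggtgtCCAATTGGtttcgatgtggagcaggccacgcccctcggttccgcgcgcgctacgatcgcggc
Cyp51: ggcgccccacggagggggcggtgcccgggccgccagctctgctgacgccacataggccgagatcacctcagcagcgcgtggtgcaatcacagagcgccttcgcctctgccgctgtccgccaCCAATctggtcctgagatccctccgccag
Hsd17b7: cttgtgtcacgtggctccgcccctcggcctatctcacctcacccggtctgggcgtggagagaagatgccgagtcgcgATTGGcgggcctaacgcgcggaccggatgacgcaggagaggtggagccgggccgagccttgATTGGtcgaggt
Lss: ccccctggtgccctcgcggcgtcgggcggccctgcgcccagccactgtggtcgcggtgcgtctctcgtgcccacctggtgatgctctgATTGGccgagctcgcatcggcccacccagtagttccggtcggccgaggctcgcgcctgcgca
Counted from the start site, the motif in these stretches begins at -90, -62 and -59 in Fasn, where the last matches overlap, at -29 in Cyp51, at -73 and -12 in Hsd17b7, and at -62 in Lss. These matches are a description of the letters and say nothing of whether a factor was bound in these cells.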

How the data were processed

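Total RNA of mDE6 cells given vehicle or CHIR99021 for 6 h was measured on 1 array each. The authors used Feature Extraction for quantification (version 10.7.1.1 in the file header, 9.5.1.1 in the submitters' processing notes) and deposited the intensity of each spot with background subtracted and no scaling between arrays, on mm9 coordinates. They also deposited a table of intensities normalized between the arrays by a method not given in the sources used here, which served as an alternative.

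From 59305 non-control spots of 56605 probes, 101 flagged spots were left out, spots of a probe were averaged on the log2 scale, each array was set relative to its 75th percentile, and the 28067 probes that either array measured well above background were kept, with the criteria and Z-score described with the results (Python 3.11.15, numpy 2.4.6, pandas 2.3.3, matplotlib 3.10.9; limma 3.58.1 in R 4.3.3 for normexp with an offset of 50 and cyclic loess). The share of spots well above background was 49.8% with vehicle and 48.3% with CHIR99021, and the number of arrays limits the precision. Limits ("at least") are taken against the higher of the lowest signal well above background on the dim array and the probe's own.

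The listed genes, the further lists and the alternatives were chosen with earlier results of these data known. Every listed gene is named, and of further lists the genes past a ratio and the highest and lowest. Some genes of the further cholesterol list and of the markers are not reported here by name. Marker and Wnt feedback genes are named as a check. The rule for printed sequences asked for a protein table, not used here, so those shown were chosen after values were seen.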

Additional observations from a re-analysis of the deposited data

How the results depend on the processing

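No paired analysis was possible because there was 1 array for each condition. The alternatives, 13 in all, were other scalings, background correction, filters, rules for several probes, array rows and criteria. The count of listed genes called higher, 9, stayed at 9 under all 7 scaling and background alternatives. It was 7 with the mean over probes, 10 with the ratio alone, 5 with the earlier rows only, where fewer genes were tested, and 0 with a Z-score over all probes. The count called lower, 0, was 1 (Lpin1) with normexp, with no filter, with the ratio alone and with a Z-score over all probes. The median log2 ratio of all listed genes, 0.40, of the cholesterol synthesis genes, 0.43, and of the fatty acid genes, 0.39, became 0.34, 0.39 and 0.34 with quantile normalization, 0.43, 0.47 and 0.42 with median scaling, 0.34, 0.38 and 0.33 with no scaling, 0.34, 0.40 and 0.33 with cyclic loess, 0.34, 0.38 and 0.33 with the percentile over detected probes, 0.34, 0.39 and 0.34 in the table normalized by the authors, and 0.32, 0.36 and 0.23 with the earlier rows only. The mean over probes gave 0.44 for all and 0.47 for the fatty acid genes, and normexp gave 0.38 for the cholesterol genes. With no filter the median of all genes shifted by 0.16 log2.

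Of 329 ratios of single genes under an alternative, 132 moved by at most the spot-to-spot SD of 0.03 log2, 189 moved by more on the same side of 1, and 8 changed side. Many of the 132 could not move, since the filters left the brightest probe in place. The same held with the earlier rows for genes whose brightest probe lay there, and with the mean over probes for genes with 1 tested probe. Mvk was at 0.975 with quantile normalization and in the authors' table and at 0.996 with the earlier rows only, which leave its other probe. Ebp was at 0.977 with quantile normalization, 0.998 with no scaling, 0.995 with cyclic loess, 0.997 with the percentile over detected probes and 0.965 in the authors' table. No scaling and the percentile over detected probes shift all genes alike, by -0.05 log2, so Ebp kept its place among all genes there. For quantile normalization, cyclic loess and the authors' table the cause was not tested. A probe well above background on 1 array only gives a limit, not a ratio.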
